A study of Mus musculus with 19 samples.

Results

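The genes described here are 8 transcripts of neurotrophin and glial cell line-derived neurotrophic factor (GDNF) family signalling in mouse dorsal root ganglia: the ligand Bdnf, the neurotrophin receptors Ntrk2, Ntrk3 and Ngfr, the GDNF family signalling receptor Ret, and its co-receptors Gfra1, Gfra2 and Gfra3. They were taken by gene symbol from a deposited table of 36682 genes, and all 8 were listed. All 8 also passed the filter on low counts, which left 22778 genes for testing.

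Neurotrophins are secreted proteins that sensory neurons need for survival and for their mature properties. Bdnf binds the tyrosine kinase TrkB, encoded by Ntrk2, neurotrophin-3 binds TrkC, encoded by Ntrk3, and all neurotrophins bind the p75 neurotrophin receptor, encoded by Ngfr. GDNF family ligands bind a membrane-anchored co-receptor (Gfra1 for GDNF, Gfra2 for neurturin, Gfra3 for artemin), and the pair then activates the tyrosine kinase Ret; in the dorsal root ganglion these receptors mark different classes of sensory neuron, and Ntrk2 and Ngfr are also known from glia.

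The study asked what systemic depletion of macrophages does to the ganglia of mice with experimental osteoarthritis. All mice were male and homozygous for MaFIA (macrophage Fas-Induced apoptosis), a transgene that, as background, uses the Csf1r promoter to express a Fas-based suicide protein which the dimerizing drug AP20187 activates. Osteoarthritis of the knee was produced surgically by destabilizing the medial meniscus (DMM). RNA from whole L3-L5 ganglia, pooled for each sample and taken on the operated side in DMM mice, was sequenced as poly(A) libraries.

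In the DMM AP20187 group (5 libraries) the drug was given intraperitoneally on 5 consecutive days, 8 weeks after surgery, and the DMM vehicle group (5 libraries) had the same operation and injections of vehicle. The naive AP20187 group (4 libraries) and the naive vehicle group (5 libraries) were age-matched mice without surgery that received the same injections. No group without the transgene and no sham operation is among these samples, so an effect of AP20187 itself cannot be told apart from that of the activated transgene. Libraries are named by the sample number in their labels; the labels do not say beyond that number that each library is a separate animal, and p-values measure the spread between these libraries.

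The libraries held between 60984830 and 74691396 counts. Neuronal transcripts varied widely: the mean log2 CPM of 14 pan-neuronal genes ran from 5.96 to 8.03 in DMM AP20187, from 7.48 to 8.87 in DMM vehicle, from 6.43 to 8.44 in naive AP20187 and from 8.32 to 8.94 in naive vehicle libraries. CPM are counts brought to a common library total, after TMM scaling of the totals. The same mean over 7 genes of neutrophils and marrow precursors ran from 10.1 to 11.0, from 4.58 to 9.10, from 8.75 to 10.7 and from 5.74 to 7.19 in the same order of groups, with DMM vehicle libraries 63 and 64 the highest of their group. Of 7 macrophage genes, none was called lower with AP20187 in either setting, while 1 was called higher in DMM and 2 in naive mice. Of all tested genes, 12.4% were called lower and 11.3% higher in DMM mice, and 2.57% lower and 8.61% higher in naive mice. Skeletal muscle genes were high in the naive AP20187 libraries (7.90 to 8.54, against 1.10 to 6.11 in naive vehicle) and in DMM vehicle library 32 (8.28, against 1.39 to 5.29 in the other 4 of its group). The same mean over 8 genes of spinal cord neurons ran from -1.90 to -0.97 in naive AP20187, where Slc6a5 was at 0 in all 4 libraries, and from -0.997 to -0.0046 in DMM AP20187, against 0.30 to 0.99 in naive vehicle and 0.38 to 0.80 in DMM vehicle.

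In naive vehicle ganglia, the 8 transcripts ranked by length-corrected level as follows. Ngfr had the highest mean, at 125 ± 44.0 FPKM (SD, n = 5; FPKM are read counts corrected for transcript length and library size), and Ret followed with 92.0 ± 30.6 FPKM. The co-receptors came next, with Gfra2 at 48.4 ± 13.8, Gfra1 at 21.9 ± 4.04 and Gfra3 at 19.5 ± 4.47 FPKM. Ntrk2, at 9.02 ± 0.910 FPKM, and Ntrk3, at 5.97 ± 1.63 FPKM, were the lowest receptors, and the ligand Bdnf stood at 3.48 ± 0.861 FPKM.

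Within a library this order was steady at the top: Ngfr exceeded Ret in 19 of 19 libraries, although the ranges of both genes overlapped in every group. Ret exceeded Gfra2 in 18 of 19 libraries. Ntrk2 exceeded Ntrk3 in 19 of 19, by a ratio of FPKM between 1.03 and 4.59, and their ranges did not overlap in naive vehicle or in DMM AP20187 ganglia. The order of Gfra2 and Gfra1 depended on the group, with Gfra2 higher in 5 of 5 naive vehicle libraries and in 1 of 5 DMM AP20187 libraries. Gfra3 likewise exceeded Ntrk2 in 5 of 5 naive vehicle libraries, without overlap of their ranges, and in 1 of 5 DMM AP20187 libraries. Gfra1 and Gfra3 could not be separated in naive vehicle ganglia, where Gfra1 was higher in 3 of 5 libraries. Ntrk3 exceeded Bdnf in 13 of 19 libraries.

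The spread between libraries of a group also differed by gene. Ntrk2 varied least in 3 of the 4 groups, with a coefficient of variation of CPM of 11.5% in naive vehicle, 25.1% in naive AP20187, 22.4% in DMM vehicle and 17.3% in DMM AP20187 libraries; in DMM vehicle Gfra1 was lower, at 21.5%. Ngfr varied most in the last of these groups, at 81.4%, and Ret followed there at 74.6%.

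Treatment with AP20187 in DMM mice was accompanied by lower levels of most of these receptors. Against DMM vehicle, 6 of the 8 genes fell: Ntrk2, Ngfr, Ret, Gfra1, Gfra2 and Gfra3, by between 1.57-fold for Ntrk2 and 3.70-fold for Ret. Of all tested genes 23.8% were called in this contrast and 12.4% were called lower and 11.3% higher (edgeR quasi-likelihood test, Benjamini-Hochberg adjusted p under 0.05 over all genes). The median log2 fold change was -1.39 over the 8 genes and -0.10 over all tested genes. In none of the 8 genes did the libraries of the groups separate, whereas 4.18% of tested genes were lower without overlap and 12.9% separated in either direction. In bulk RNA of whole ganglia, fewer cells of a type, less RNA per cell and more RNA from other cells in the same total cannot be told apart.

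**Figure D1:**
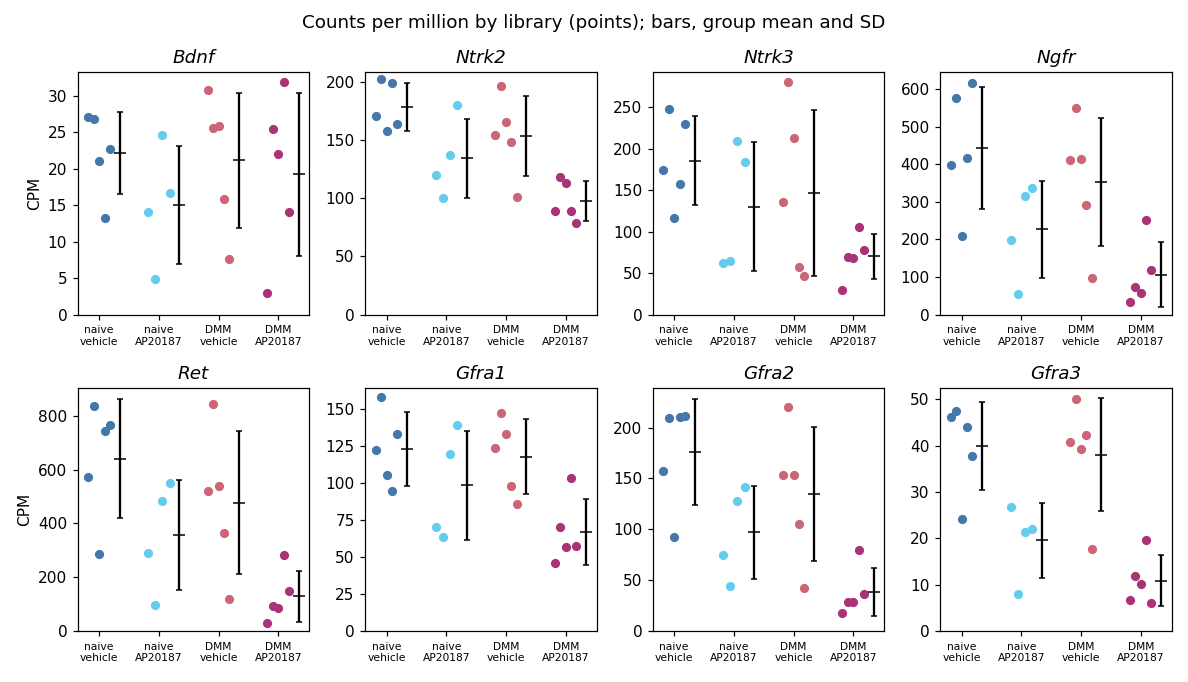
CPM (vertical axes, linear from 0) of the 8 genes in every library of the 4 groups (points), with the group mean and SD as a bar beside them. The receptors of DMM AP20187 libraries lie mostly below those of DMM vehicle, Bdnf does not, and DMM vehicle library 64 is the lowest point of its group in all 8 panels.

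Bdnf, the only ligand of the set, stood at 2.97, 25.4, 22.0, 31.8 and 14.0 CPM in DMM AP20187 libraries 58 to 62. In DMM vehicle libraries 32, 33, 34, 63 and 64 it stood at 30.8, 25.6, 25.9, 15.9 and 7.67 CPM. The groups overlapped over nearly their whole range, and libraries 58 and 64 were the lowest of each. The log2 fold change of -0.14 (SE 0.48) had an adjusted p of 0.875 by edgeR's test and a 95% interval from -1.15 to 0.88, which holds changes of either sign.

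Among the neurotrophin receptors, Ntrk2 stood at 89.1, 118, 113, 89.2 and 78.9 CPM in the DMM AP20187 libraries. The vehicle libraries, in the order above, gave 155, 196, 165, 148 and 101 CPM. Of the vehicle libraries only number 64 lay within the AP20187 range. The fall of Ntrk2 by 0.65 on the log2 scale (SE 0.18, edgeR adjusted p = 0.0182) was the smallest of the 6 called, with the smallest standard error.

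Ntrk3, whose product marks proprioceptive and other large-diameter neurons, stood at 30.4, 69.7, 68.1, 106 and 78.4 CPM with AP20187. In DMM vehicle it stood at 135, 279.9 and 212 CPM in libraries 32, 33 and 34, and at 57.2 and 47.1 CPM in libraries 63 and 64. Libraries 32, 33 and 34 thus lay above all AP20187 libraries, and libraries 63 and 64 within their range. Its log2 fold change of -1.05 (SE 0.47, 95% interval -2.03 to -0.08) did not pass, with an edgeR adjusted p of 0.106. Of 10 fits that each left out 1 library, it passed only in the fit without DMM vehicle library 64. There it was -1.28 with an edgeR adjusted p of 0.0331, and over the 10 fits it ran from -1.28 to -0.68.

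Ngfr, the gene of the p75 receptor, stood at 33.5, 73.3, 57.2, 252 and 118 CPM with AP20187. With vehicle the values were 412, 549, 413, 292 and 98.2 CPM. Libraries 61 and 62 of the AP20187 group reached above vehicle library 64, and the other 4 vehicle libraries lay above all AP20187 libraries. Ngfr fell by 1.72 on the log2 scale (SE 0.55, edgeR adjusted p = 0.0300), a 3.31-fold lower level.

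The promoters of Ngfr and Ntrk2 are shown because these receptors had the larger and the smaller of the called falls among neurotrophin receptors. Both are the 250 bases before the annotated start in RefSeq's table for GRCm38.p6, read on the gene's strand, Ngfr at chr11:95587699-95587948 (minus strand) and Ntrk2 at chr13:58806319-58806568 (plus strand). Capitals mark GC boxes, the letters GGGCGG on either strand.
Ngfr: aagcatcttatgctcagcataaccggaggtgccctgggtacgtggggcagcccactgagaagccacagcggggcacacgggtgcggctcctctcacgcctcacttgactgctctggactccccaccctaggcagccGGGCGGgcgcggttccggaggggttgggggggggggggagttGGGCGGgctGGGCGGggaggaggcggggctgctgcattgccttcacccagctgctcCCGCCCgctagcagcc
Ntrk2: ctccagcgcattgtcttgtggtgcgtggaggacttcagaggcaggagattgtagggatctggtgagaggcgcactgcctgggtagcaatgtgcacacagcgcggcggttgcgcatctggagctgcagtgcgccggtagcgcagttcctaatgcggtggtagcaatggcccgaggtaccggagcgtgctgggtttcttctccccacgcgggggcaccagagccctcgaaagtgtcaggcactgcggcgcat
The Ngfr window held 4 GC boxes and was 70.4% G and C, and the Ntrk2 window held 0 and was 62.8% G and C, against a median of 52.4% over all windows. A GC box was present in 32.7% of 32851 promoter windows of this length. Neither window held a TATA box (TATAAA, 12.4% of windows), a cyclic AMP response element (TGACGTCA, 1.55%) or an E-box (CACGTG, 6.02%), searched on both strands, none of which shares its letters with the GC box. These are matches of letters only. Promoter windows were found for 4 of the 8 genes.

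Ret, the signalling receptor for the whole GDNF family, stood at 31.5, 92.5, 85.8, 283 and 150.3 CPM in the DMM AP20187 libraries. With vehicle they were 519, 844, 538, 362 and 117 CPM. As for Ngfr, vehicle library 64 lay inside the AP20187 range and the other 4 lay above it. Ret showed the largest fitted fall of the 8 genes, by 1.89 on the log2 scale (SE 0.56, edgeR adjusted p = 0.0224).

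Of the co-receptors, Gfra1 stood at 45.9, 70.0, 56.7, 103 and 57.5 CPM with AP20187. The vehicle libraries gave 124, 147, 134, 98.3 and 85.6 CPM. Only AP20187 library 61 reached into the vehicle range. Gfra1 fell by 0.82 on the log2 scale (SE 0.25, edgeR adjusted p = 0.0249), 1.76-fold.

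Gfra2, which serves neurturin, stood at 18.1, 28.3, 28.9, 79.2 and 36.7 CPM with AP20187. In DMM vehicle it stood at 153, 220.0, 153, 105 and 42.7 CPM. Library 61 with AP20187 and library 64 with vehicle were the pair that made the ranges overlap. Gfra2 fell by 1.82 on the log2 scale (SE 0.44, edgeR adjusted p = 0.00758), 3.52-fold.

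Gfra3, the artemin co-receptor of peptide-containing nociceptors, stood at 6.59, 12.0, 10.1, 19.6 and 6.11 CPM with AP20187. In DMM vehicle it stood at 40.7, 50.1, 39.3, 42.3 and 17.6 CPM. The overlap was between library 61 and library 64 alone, and libraries 32, 33, 34 and 63 lay within 1 narrow band. Gfra3 had the smallest adjusted p of the set, 0.00238 by edgeR's test, with a fall of 1.81 on the log2 scale (SE 0.36), 3.50-fold.

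The calls depended on which DMM vehicle libraries were compared, and the sets compared also differ in their number of libraries. The AP20187 libraries carry numbers 58 to 62 and the vehicle libraries carry 32, 33 and 34 as well as 63 and 64; the labels do not say what the numbers mark. Against libraries 63 and 64 alone, 0 of the 8 genes were called by edgeR while 1156 of all genes were, and the log2 fold changes were -0.31 for Ntrk2, 0.46 for Ntrk3, -0.84 for Ngfr, -0.86 for Ret, -0.44 for Gfra1, -0.91 for Gfra2, -1.41 for Gfra3 and 0.76 for Bdnf. Of these Gfra3 came nearest, with an adjusted p of 0.0747. Against libraries 32, 33 and 34 alone, 7 of the 8 were called, Ntrk3 now among them at -1.57 (edgeR adjusted p = 0.00833), while calls over all genes rose from 5410 to 8450. Libraries 63 and 64 also had the highest neutrophil and marrow score, and 64 the lowest pan-neuronal score, of the DMM vehicle group.

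Leaving out 1 library at a time left between 2 and 7 of the 8 genes called, and between 3212 and 7677 of all genes. Gfra2 and Gfra3 passed in all 10 of these fits. The number was 3 without DMM AP20187 library 58, 3 without AP20187 library 60, 3 without vehicle library 32 and 2 without vehicle library 33. Ngfr was lost in 7 of the 10 fits (edgeR adjusted p from 0.0535 to 0.0768 in those), Gfra1 in 6 (0.0541 to 0.0708), Ret in 4 (0.0515 to 0.0657) and Ntrk2 in 2, at 0.0518 and 0.0568.

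**Figure D2:**
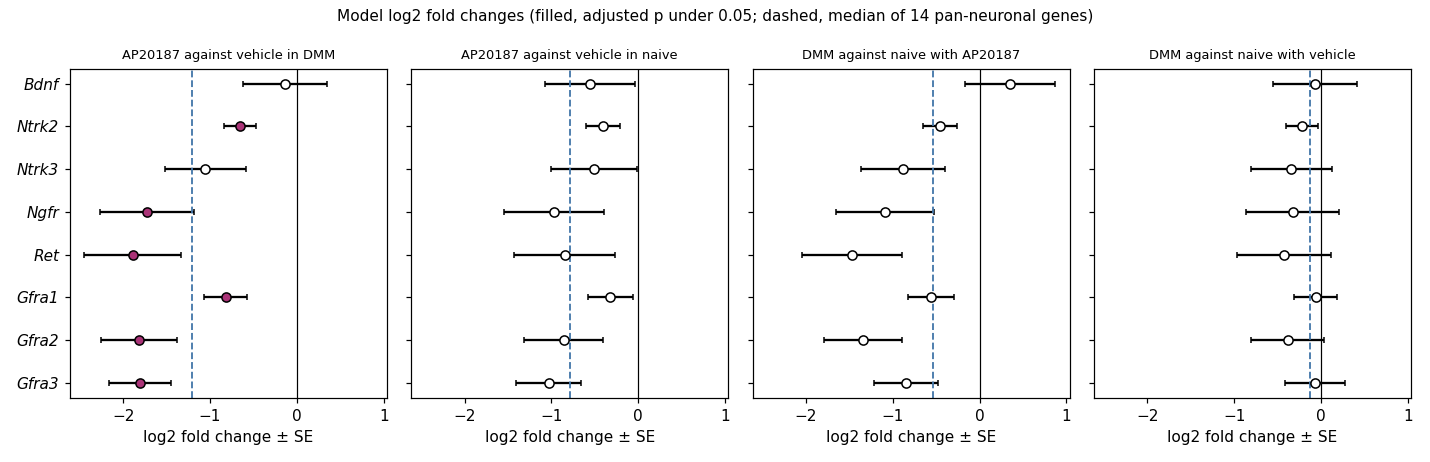
Fitted log2 fold changes with standard errors (horizontal axes) of the 8 genes in the 4 pairwise comparisons; filled points have an adjusted p under 0.05 and the dashed line is the median of 14 pan-neuronal genes. Filled points occur only in the comparison of AP20187 with vehicle in DMM mice, where Ngfr, Ret, Gfra2 and Gfra3 lie to the left of the pan-neuronal median of -1.21 and Ntrk2, Ntrk3, Gfra1 and Bdnf to its right.

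In naive mice AP20187 gave lower fitted levels of all 8 genes, none of which passed. By edgeR's test 0 of the 8 were called, against 11.2% of all tested genes (2.57% lower and 8.61% higher), and 2 had an unadjusted p under 0.05. DESeq2 called 1 of the 8, Gfra3, and 4356 of all genes. The median log2 fold change was -0.70 over the 8 genes and -0.07 over all tested genes. This comparison shares no library with the comparison in DMM mice.

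Gfra3 came nearest among them. It stood at 26.7, 8.02, 21.4 and 22.1 CPM in naive AP20187 libraries 1, 3, 4 and 5. In naive vehicle libraries 1 to 5 it stood at 46.1, 47.5, 24.1, 44.0 and 37.8 CPM. Vehicle library 3 alone lay within the AP20187 range. The log2 fold change was -1.03 (SE 0.37, 95% interval -1.81 to -0.24) with an edgeR adjusted p of 0.0816, and DESeq2 gave -1.05 with an adjusted p of 0.0326.

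Ntrk2 stood at 119.7, 100.4, 137 and 179 CPM with AP20187. In naive vehicle it stood at 170.2, 202, 158, 198 and 164 CPM. AP20187 library 5 lay among the vehicle libraries and the other 3 below them. The log2 fold change was -0.41 (SE 0.20, edgeR adjusted p = 0.173), and limma on log2(FPKM + 1) called it, at -0.54 with an adjusted p of 0.0441, as it did on log2(FPKM + 0.1).

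The GDNF receptors gave similar pictures with wider spread. Ret stood at 289, 97.9, 484 and 551 CPM with AP20187 and at 571, 834, 284, 745 and 765 CPM with vehicle; its fitted log2 change was -0.85 (SE 0.58, edgeR adjusted p = 0.339). Gfra2 stood at 74.3, 44.4, 128 and 142 CPM with AP20187 and at 157, 209, 92.5, 210.4 and 211 CPM with vehicle, -0.86 (SE 0.46, adjusted p = 0.220). Library 3 was the lowest of both naive groups for both genes. Gfra1 was at -0.32 (SE 0.26, adjusted p = 0.424). Ngfr was at -0.97 (SE 0.57, adjusted p = 0.269), from a range of 56.0 to 337 CPM with AP20187 and 209 to 615 CPM with vehicle.

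Ntrk3 and Bdnf had the largest adjusted p of the 8 genes in naive mice. Ntrk3 stood at 62.6, 64.5, 209 and 184 CPM with AP20187, with libraries 1 and 3 below and libraries 4 and 5 inside the vehicle range of 117 to 248 CPM (log2 fold change -0.51, SE 0.49, edgeR adjusted p = 0.503). Bdnf stood at 14.1, 4.97, 24.6 and 16.6 CPM with AP20187, against 13.3 to 27.0 CPM with vehicle (-0.56, SE 0.52, adjusted p = 0.485). None of the 8 genes separated the naive groups, where 6.15% of tested genes were lower without overlap and 15.5% separated in either direction.

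The effect of AP20187 was fitted as larger in DMM than in naive mice for 7 of the 8 genes, but no difference between the effects passed. Its log2 size was -1.04 for Ret, -0.96 for Gfra2, -0.78 for Gfra3, -0.76 for Ngfr, -0.54 for Ntrk3, -0.50 for Gfra1, -0.24 for Ntrk2 and 0.42 for Bdnf, with edgeR adjusted p from 0.800 to 0.950. The interaction test called 0 of the 8 genes, 0 had an unadjusted p under 0.05, DESeq2 called 0, and 0.114% of all tested genes were called. The 95% interval for Ret ran from -2.69 to 0.61, an interval that holds differences of either sign.

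Surgery alone was compared in vehicle-treated mice. Fitted differences between DMM and naive vehicle ran from -0.43 for Ret to -0.06 for Gfra1 on the log2 scale, with a median of -0.27 over the 8 genes and 0.03 over all tested genes. By edgeR's test 0 of the 8 genes were called, 0 had an unadjusted p under 0.05, DESeq2 called 0, and 0% of all tested genes were called, although 377 genes had an unadjusted p under 0.05. None of the 8 separated the groups, as 0.237% of tested genes did.

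The intervals show what this comparison could resolve. For Ntrk2, the most even gene, the difference was -0.22 with a 95% interval from -0.61 to 0.16. For Ret it was -0.43 with an interval from -1.56 to 0.71, wide enough to hold a change of the size seen with AP20187 in naive mice. With DMM vehicle libraries 32, 33 and 34 only, Bdnf, Ntrk3, Ngfr, Gfra1 and Gfra3 changed sign to between 0.05 and 0.30, none of them called. With libraries 63 and 64 only, the differences went the other way, to -1.83 for Ntrk3, -1.44 for Ret, -1.28 for Gfra2, -1.21 for Ngfr, -0.93 for Bdnf, -0.51 for Ntrk2, -0.43 for Gfra3 and -0.41 for Gfra1, again with 0 of the 8 called by edgeR, against 541 of all genes. Leaving out 1 library moved Ntrk3 between -0.71 and -0.11 and Ret between -0.74 and -0.18.

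With AP20187 on both sides, 7 of the 8 genes had lower fitted levels in DMM than in naive mice. This comparison shares the AP20187 libraries with both treatment comparisons above. By edgeR's test 0 of the 8 were called, against 0.702% of all tested genes (0.439% lower and 0.263% higher), 5 had an unadjusted p under 0.05, and DESeq2 called 0. Fitted log2 differences were -1.47 for Ret (SE 0.57, adjusted p = 0.213), -1.35 for Gfra2 (SE 0.45, adjusted p = 0.153), -1.09 for Ngfr, -0.88 for Ntrk3, -0.85 for Gfra3, -0.56 for Gfra1 and -0.46 for Ntrk2, with 0.35 for Bdnf. No gene of the set separated the groups, against 5.9% of tested genes, 2.44% of them lower. For Gfra2 the DMM libraries stood between 18.1 and 79.2 CPM and the naive libraries between 44.4 and 142 CPM, with naive libraries 1 and 3 and DMM library 61 in the overlap.

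All 4 lists of sensory neuron markers also had genes called lower with AP20187 in DMM mice. The shares of all tested genes to read edgeR's counts against are 12.4% lower and 11.3% higher in DMM mice, and 2.57% lower and 8.61% higher in naive mice. DESeq2 called more of all genes in either direction, 7029 in DMM and 4356 in naive mice, against 5410 and 2548 by edgeR. Of the 14 pan-neuronal genes, 9 were called lower with AP20187 in DMM mice (median log2 fold change -1.21) and 0 in naive mice (median -0.79, where 3 had an unadjusted p under 0.05 and DESeq2 called 3). Nociceptor genes had 5 of 9 called lower in DMM (median -1.70) and 0 in naive mice (median -1.02, where 6 had an unadjusted p under 0.05 and DESeq2 called 2). Genes of low-threshold C-fibres had 3 of 4 called lower in DMM and 2 of 4 in naive mice. Large-fibre neuron genes had 2 of 9 called lower in DMM by edgeR (median -1.46), while DESeq2 called 6. In naive mice the large-fibre list (median -0.47) had 0 of 9 called lower and 1 called higher, Pvalb, named after its values were seen. Satellite glia genes had 2 of 8 called lower in DMM (median -0.32), and genes of myelinating Schwann cells 3 of 8 (median -0.66). Over the same comparison the neutrophil and marrow list had 6 of 7 genes called higher in DMM (median 3.02) and 7 of 7 in naive mice (median 3.73). B lineage genes had 5 of 5 called lower in both settings (medians -3.87 and -3.13), vascular endothelial genes 3 of 6 called higher in DMM and 2 of 6 in naive mice, and erythroid genes 2 of 4 called lower in DMM mice. The part of these markers in the receptors' levels was not tested.

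**Figure D3:**
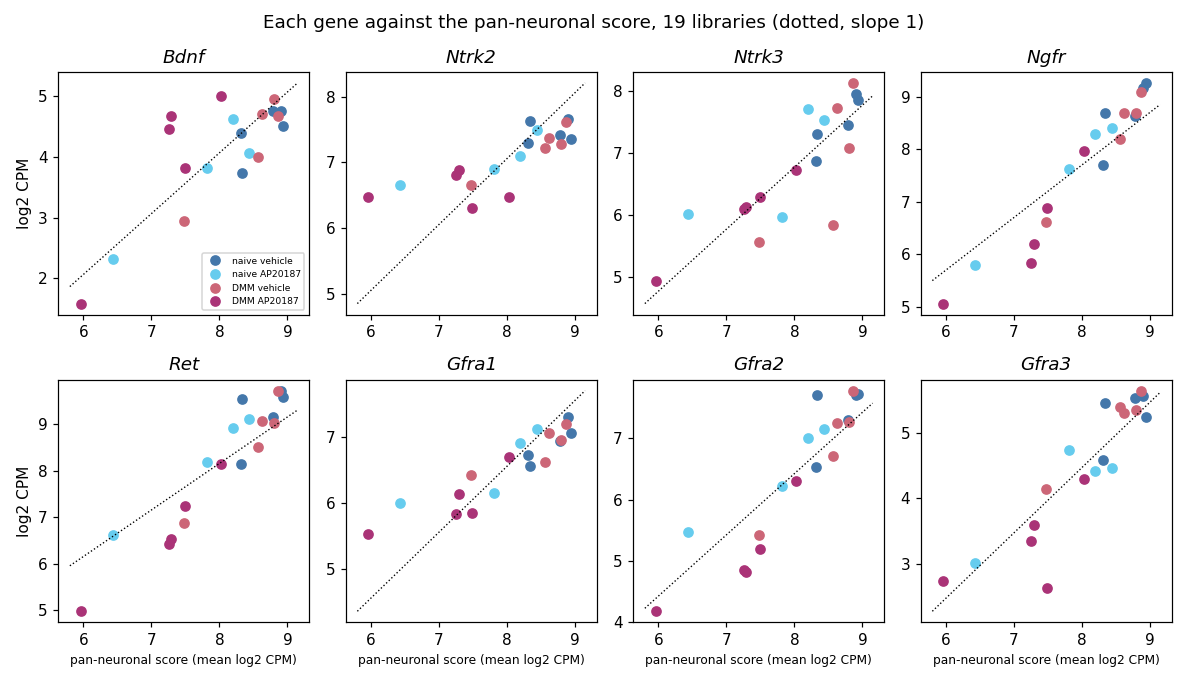
Log2 CPM of each gene (vertical axes) against the pan-neuronal score, the mean log2 CPM of 14 pan-neuronal genes (horizontal axes), in 19 libraries coloured by group; the dotted line has a slope of 1. Libraries with a low score, such as DMM AP20187 library 58 at 5.96, have low levels of the receptors; Ntrk2 and Gfra1 lie above the line there and Ngfr and Ret of DMM AP20187 libraries lie mostly below it.

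To set each gene beside the neuronal transcripts of the same library, the pan-neuronal score was subtracted from its log2 CPM. With AP20187 in DMM mice, Ret stood lower against this score by a mean log2 difference of -0.72, Ngfr by -0.61, Gfra3 by -0.60 and Gfra2 by -0.55. Ntrk2, Ntrk3, Gfra1 and Bdnf stood higher against it, with differences of 0.63, 0.42, 0.41 and 0.91. None of the 32 differences (8 genes in 4 comparisons) passed an exact two-sided permutation test after Benjamini-Hochberg adjustment, where the smallest adjusted p was 0.254. With 5 against 5 or 4 against 5 libraries, the smallest p possible is 0.00794. A single difference at that p could not pass adjustment over 32 tests, so the adjusted result decides nothing about any single gene. Of the 32, 5 had an unadjusted p under 0.05.

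Gfra3 gave the closest band in DMM vehicle, at -3.45, -3.22, -3.32, -3.16 and -3.33 in libraries 32, 33, 34, 63 and 64. In DMM AP20187 it stood at -3.23, -3.71, -3.92, -3.74 and -4.87 in libraries 58 to 62. Library 64, the lowest of the vehicle group in CPM, was inside the band on this scale, and library 58 with AP20187 reached it (exact permutation p = 0.0317, adjusted p = 0.254). Ret stood at -0.99, -0.76, -0.83, 0.12 and -0.26 with AP20187 in DMM mice and at 0.37, 0.18, 0.72 and 0.67 in naive mice, without overlap (difference -1.03, exact permutation p = 0.0159, adjusted p = 0.254). Gfra2 also did not overlap between these groups, at -1.78, -2.47, -2.40, -1.72 and -2.29 in DMM and -1.59, -0.96, -1.20 and -1.29 in naive mice, a difference of -0.87 with the same p. On this scale 2.63% of all tested genes separated these groups and 1.18% were lower without overlap. The other 2 with an unadjusted p under 0.05 were higher: Gfra1 with AP20187 in naive mice, by 0.56 (exact permutation p = 0.0238, adjusted p = 0.254), and Bdnf with AP20187 in DMM mice, by 0.91 (exact permutation p = 0.0476, adjusted p = 0.290).

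**Figure D4:**
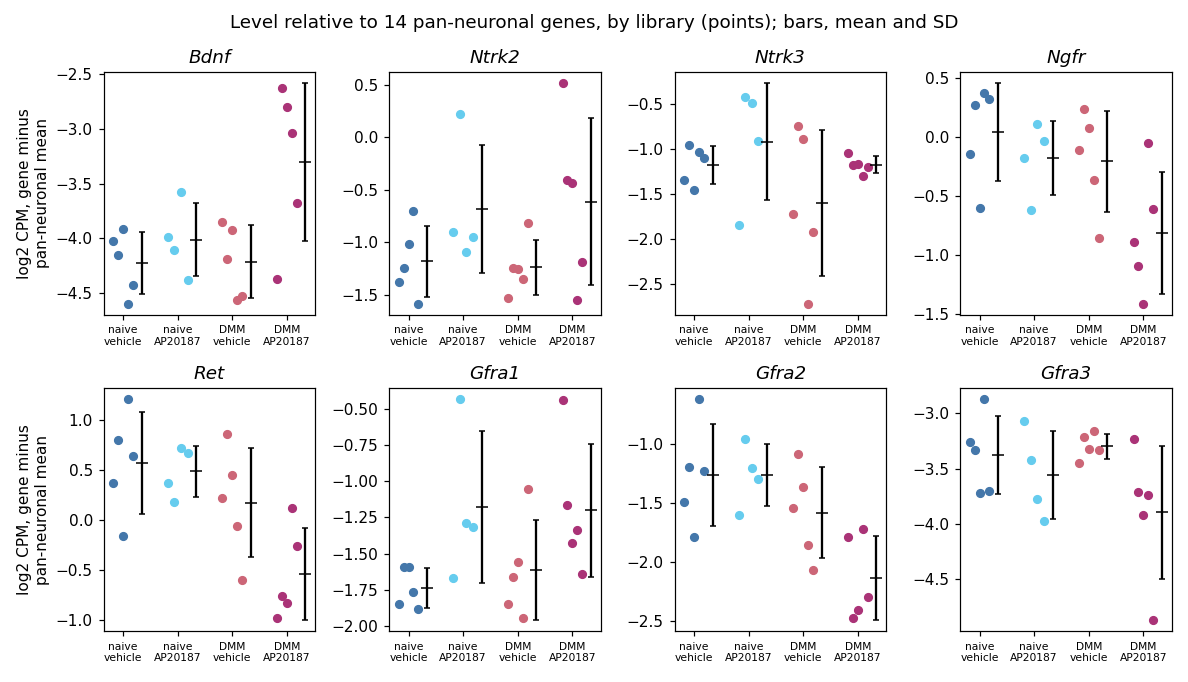
Log2 CPM of each gene minus the mean log2 CPM of 14 pan-neuronal genes of the same library (vertical axes) in the 4 groups, with points for libraries and bars for the mean and SD. Ret and Gfra2 of DMM AP20187 libraries lie below those of naive AP20187 libraries without overlap, as 1.18% of tested genes do, while Ntrk2 and Bdnf of DMM AP20187 lie on average above DMM vehicle, by 0.63 and 0.91.

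Other genes of the pathway were read from a list of 52 by role. Among ligands, edgeR called 0 of the 7 tested in each of the 5 comparisons, at most 1 had an unadjusted p under 0.05 in any of them, and DESeq2 called 1 with AP20187 in naive mice and 0 elsewhere. Of the 7, 6 had a mean under 1 CPM in every group, among them Gdnf, Nrtn, Artn and Ntf3, the ligands of Ret's co-receptors and of Ntrk3, against group means of 15.1 to 22.2 CPM for Bdnf.

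Among 10 other receptors and co-receptors, 6 were called lower and 1 higher with AP20187 in DMM mice (median log2 fold change -1.14), beside 12.4% and 11.3% of all tested genes. Lingo1, a partner of the p75 receptor, fell by 1.59 on the log2 scale (SE 0.46, edgeR adjusted p = 0.0196), a call lost without DMM AP20187 library 58 or vehicle library 33. The gene that rose was Sort1, which encodes sortilin, a sorting receptor that forms a complex with the p75 receptor for proneurotrophins. Sort1 stood at 187 ± 58.3 CPM with AP20187 and at 72.2 ± 13.4 CPM with vehicle (SD, n = 5 each), from 140.5 to 280.2 against 55.8 to 87.6 without overlap, a log2 fold change of 1.37 (SE 0.21, edgeR adjusted p = 0.000446) that passed in all 10 fits leaving out 1 library. In naive mice Sort1 rose by 0.73 (SE 0.22, edgeR adjusted p = 0.0385), from 71.4 ± 14.3 (n = 5) to 119 ± 26.3 CPM (n = 4), a call lost in 7 of 9 such fits, and the interaction of its 2 effects did not pass (0.64, adjusted p = 0.651). Sort1 and Ngfr thus had called changes of opposite direction in DMM mice.

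Gfra4, the persephin co-receptor and the remaining member of its family on the table, was the only gene of these pathway lists that edgeR called between DMM and naive mice, and is named after its values were seen. In that comparison, with AP20187 on both sides, DESeq2 called 1 gene of the receptor list and 2 of the 12 transcripts that respond to the pathway. It called 1109 of all genes there, against 160 by edgeR. The level of Gfra4 was 4.34 ± 1.11 CPM in DMM AP20187, 9.19 ± 2.09 in DMM vehicle (n = 5 each), 8.72 ± 2.09 in naive AP20187 (n = 4) and 9.40 ± 2.10 CPM in naive vehicle libraries (n = 5). The 6.01 CPM of its highest DMM AP20187 library lay below the lowest library of each other group. The fall with AP20187 in DMM mice was 1.08 on the log2 scale (SE 0.22, edgeR adjusted p = 0.00300) and passed in all 10 fits leaving out 1 library. Against naive AP20187 it was -1.01 (SE 0.23, adjusted p = 0.0497), a call lost in 7 of 9 such fits, and the interaction did not pass (-0.97, adjusted p = 0.374).

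Adaptors and signal relays, which carry the signal from the receptors into the cell, had 6 of 21 members called lower and 0 called higher in DMM mice (median -0.73), against the 12.4% of all tested genes called lower. The largest were Shc2, an adaptor of Trk receptors, at -1.43 (SE 0.43, edgeR adjusted p = 0.0252), Dok4, a docking protein of Ret, at -1.39 (SE 0.34, adjusted p = 0.00790), and Maged1, which binds the p75 receptor, at -1.02 (SE 0.24, adjusted p = 0.00657). The call of Shc2 was lost in 4 of 10 fits leaving out 1 library (adjusted p from 0.0559 to 0.0616). Dok4 was also the 1 member called in naive mice, at -1.18 (SE 0.36, adjusted p = 0.0424), a call lost in 7 of 9 fits leaving out 1 library. Against DMM vehicle libraries 63 and 64 alone the calls of Lingo1 (-0.52), Shc2 (-0.69), Dok4 (-1.01) and Maged1 (-0.70) were lost, with edgeR adjusted p from 0.179 to 0.648, and those of Sort1 and Gfra4 passed.

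Of 12 transcripts known to respond to growth factor signalling, 4 were called lower and 1 higher with AP20187 in DMM mice (median -0.35), where 12.4% of all tested genes were called lower and 11.3% higher. Spry4, an inhibitor of receptor tyrosine kinase signalling, fell by 1.13 on the log2 scale (SE 0.22, edgeR adjusted p = 0.00199), and Etv5, a transcription factor induced by Ret, by 0.99 (SE 0.32, adjusted p = 0.0323). Spry1, of the same inhibitor family as Spry4, rose by 1.32 (SE 0.47, adjusted p = 0.0489) in DMM and by 1.70 (SE 0.49, adjusted p = 0.0334) in naive mice. The calls of Etv5 and of Spry1 in DMM mice were lost in 7 and 8 of the 10 fits leaving out 1 library, and that of Spry1 in naive mice in 4 of 9. Against DMM vehicle libraries 63 and 64 alone Spry4 (-0.92, edgeR adjusted p = 0.0654), Etv5 (-0.39, adjusted p = 0.635) and Spry1 (0.47, adjusted p = 0.643) did not pass.

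Across the 19 libraries, the tested genes whose log2 CPM most resembled each of the 8 were searched among 14480 genes with a mean of at least 1 CPM. The libraries share group, neuronal content and processing, so these correlations are descriptions. Ret was most like Fam189b, Dpysl5 and Gnao1 (Pearson's r of 0.996 for each), Ngfr most like Magee1 (0.996), and Gfra2 most like Cyp4f39 (0.996) and Ncam1 (0.991). Ntrk3 was most like Bmpr2 (0.982), Gfra1 most like Vat1l (0.979) and Gfra3 most like Nsg2 (0.966). Ntrk2 and Bdnf had the weakest best matches, with Zfp174 (0.956) and Rasef (0.955). None of the 3 best matches of any of the 8 genes was another of the 8.

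The genes lie on 8 different chromosomes, at positions given by the deposited table, whose build is GRCm39 per the submitters' processing notes. Bdnf (ENSMUSG00000048482) spans 109505045 to 109557352 on the plus strand of chromosome 2, Ntrk2 (ENSMUSG00000055254) spans 58954383 to 59281784 on the plus strand of chromosome 13, and Ntrk3 (ENSMUSG00000059146) spans 77825707 to 78387760 on the minus strand of chromosome 7. Ngfr (ENSMUSG00000000120) spans 95459644 to 95478561 on the minus strand of chromosome 11 and Ret (ENSMUSG00000030110) spans 118128706 to 118174679 on the minus strand of chromosome 6. Gfra1 (ENSMUSG00000025089) spans 58224036 to 58444341 on the minus strand of chromosome 19, Gfra2 (ENSMUSG00000022103) spans 71127560 to 71217278 on the plus strand of chromosome 14, and Gfra3 (ENSMUSG00000024366) spans 34822951 to 34853440 on the minus strand of chromosome 18. Other listed genes overlap Bdnf, Ntrk2, Ntrk3 and Gfra1, the largest of them with 1.60% of the counts of the gene it overlaps (at Ntrk3), and whether strand was used in counting is not given in the sources used here.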

How the data were processed

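Poly(A) RNA of pooled L3-L5 dorsal root ganglia was sequenced from 19 samples in 4 groups taken from the labels. The authors deposited raw counts per gene and FPKM in 1 table; the submitters' processing notes name cutadapt, HISAT2, StringTie and GRCm39, with no versions or order, and the library kit was stranded, per the labels' protocols. Rows without a gene name other than an identifier hold 0.112% of counts and were kept. Counts (60984830 to 74691396 per library) were filtered with filterByExpr (minimum count 10), scaled by TMM and fitted as 4 group means (15 residual degrees of freedom) with edgeR 4.0.16 quasi-likelihood tests in R 4.3.3; p-values were adjusted over 22778 genes, with a threshold of 0.05. Log2 CPM used a prior count of 2. The deposited FPKM served for comparing levels between genes and, in limma 3.58.1 on log2(FPKM + 1) and log2(FPKM + 0.1), as alternatives beside DESeq2 1.42.0, RLE scaling, no filter, other sample sets and leaving out each library. The count tests were first tested on simulated data. Intervals are 95% and cover the spread between libraries. Figures used matplotlib 3.10.9.

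The 8 genes, the pathway and marker lists and the tests were chosen with earlier results of these data known. All 8 genes are described in every comparison; of each pathway role, at most 3 called genes of largest log2 fold change with at least 1 CPM, and for each of the 8 the 3 most similar genes, could be named.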

Additional observations from a re-analysis of the deposited data

How the results depend on the processing

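The count of 6 genes called with AP20187 in DMM mice was 5 to 7 under every planned change of scaling, filter, tool or sample set except DMM vehicle libraries 63 and 64 only, which gave 0; the fit to the DMM groups alone lost Ntrk2 (adjusted p = 0.0576). Leaving out 1 library gave 2 to 7, and over all genes 3212 to 7677 calls against 5410. With libraries 63 and 64 only, all genes gave 1156 calls, and 8450 with libraries 32 to 34. Bdnf (0.76) and Ntrk3 (0.46) changed sign with libraries 63 and 64, as did the interaction of Ntrk2 (0.079), Ntrk3 (0.96) and Ngfr (0.13). With libraries 32 to 34, DMM against naive vehicle changed sign for Bdnf (0.30), Ntrk3 (0.17), Ngfr (0.048), Gfra1 (0.13) and Gfra3 (0.12). Libraries 63 and 64 alone gave 541 calls over all genes in that comparison and 90 for the interaction. The causes were not tested.

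In naive mice DESeq2 called 1 of the 8 genes and log2(FPKM + 1) and log2(FPKM + 0.1) called 2 each, with 4356, 4147 and 4225 calls over all genes against 2548, and 994 to 3452 when 1 library was left out. For DMM against naive with AP20187, where edgeR called 160, DESeq2 called 1109, no filter 73, log2(FPKM + 1) 1220, log2(FPKM + 0.1) 1011, and leaving out 1 library 43 to 269. The interaction, with 26, gave 224 with DESeq2, 13 with no filter, 56 with log2(FPKM + 1) and 12 to 57 without 1 library. No filter means more genes tested.

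Naive libraries 1, 3, 4 and 5 share numbers across treatments. With the number as a replicate block, 3 of the 8 genes were called (Ret -0.90, adjusted p = 0.0477; Gfra2 -0.86, 0.0240; Gfra3 -1.04, 0.0229); the same 8 libraries without the block, an alternative added after seeing the data, gave 0, with 1204 calls over all genes against 1929 with it. Deviations of same-numbered libraries correlated at 0.00781, 0.254, -0.0532 and 0.223, and 4 of 8 libraries correlated best with their own number. The labels do not say whether libraries of equal number share anything else, and the reason for the change in calls was not tested. No paired analysis was possible for the DMM groups because they share no number.

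Leaving out 1 library moved some uncalled values across 0: Bdnf with AP20187 in DMM (-0.39 to 0.14), and in DMM against naive vehicle Bdnf (-0.26 to 0.14), Gfra1 (-0.16 to 0.047) and Gfra3 (-0.21 to 0.11). Relative to the pan-neuronal score the same held in DMM against naive vehicle for Bdnf (-0.081 to 0.10), Ntrk2 (-0.16 to 0.066), Gfra1 (-0.015 to 0.21) and Gfra3 (-0.0060 to 0.21), in DMM against naive AP20187 for Ntrk2 (-0.21 to 0.37) and Gfra1 (-0.22 to 0.22), and with AP20187 in naive mice for Ret (-0.27 to 0.073) and Gfra2 (-0.13 to 0.16). With the median of the list Bdnf in DMM against naive vehicle was -0.033 and Gfra2 in naive mice -0.014, the latter -0.016 with log2(FPKM + 1). The 8 genes had at least 196 counts in every library. How far depth, the number of libraries and their spread each limit the precision was not tested.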
